A study of Homo sapiens with 10 samples.

Results

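SH-SY5Y is a human neuroblastoma line of noradrenergic, neuroblast-like cells, used as a model of immature sympathetic neurons. In the comparison described here, 3 libraries came from cells given an siRNA (100 nM) that targets LncND, a long non-coding RNA, and 3 from cells given a scrambled siRNA, out of 10 libraries in the series. Cells of both groups were grown in DMEM/F12 medium with serum and antibiotic, and harvested after 72 h for sequencing of poly(A) RNA. The remaining 4 libraries, used only in the last comparison, were of cells that received either 50 nM miR-143-3p mimic or scrambled miRNA, 2 libraries per treatment. The series title names LncND as a primate RNA that sequesters a microRNA and links it to Notch signalling, and the comparison asked how the transcriptome changed when it was targeted. The labels name 1 siRNA target and 1 cell line and do not say that the replicates were separate cultures, so the spread that p-values rest on may be technical. LncND had no row under that name, so its own level was not analysed here.

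Neuroblastoma cells of this kind can hold a proliferating neuroblast state or move towards a state with more neurites, secretory granules and synaptic proteins. A core circuit of transcription factors, among them HAND2 and GATA3, maintains noradrenergic identity, and a separate mesenchymal state is marked by matrix genes and factors such as YAP1 and PRRX1. Lysosomes, the nuclear envelope, the splicing machinery and the biosynthetic enzymes of growing cells are the other systems described below.

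Levels are FPKM, the number of fragments per kilobase of transcript after scaling to library size, as mean ± SD with n = 3 per group. Genes were included when they lay on an assembled chromosome, had a number in all 6 libraries and a mean of at least 1 FPKM, which left 12601 of 23609 gene names. Changes are LncND siRNA minus scrambled siRNA as log2(FPKM + 1), a scale on which low genes show less than their full change. "Rose" and "fell" are used for genes with a limma adjusted p under 0.05. Positions are hg19, as in the deposited tables.

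The libraries fell into the labelled groups. Correlations of log2 values across genes were 0.988 to 0.996 within groups and 0.962 to 0.967 between them. Depth, estimated from the FPKM steps of single-exon olfactory receptor genes, was 25.5 to 44.2 M fragments, an estimate that rests on 6 to 14 genes per library. LncND siRNA replicate 1 stood apart through the small RNA gene RNY4, listed at 1224670 FPKM there and at 0.001 FPKM in the other 5 libraries. Counts given here that move by more than 1.5 times when this or another library is left out are also given without it. Of 15 markers of noradrenergic neuroblastoma cells, 14 had a mean of at least 1 FPKM, and their summed level was 2266 to 2333 FPKM with scrambled siRNA and 2832 to 2916 FPKM with LncND siRNA. The exception was TH, the rate-limiting enzyme of catecholamine synthesis, which was under 0.1 FPKM. Markers of other cells had lower summed levels, and these sums were higher with LncND siRNA. Of 20 Schwann and glial markers 4 had a mean of at least 1 FPKM, and all 4 rose. Of these 4, NGFR had a scrambled siRNA level below 1 FPKM and passed through its LncND siRNA level. A further 12, SOX10 and MBP among them, were under 0.1 FPKM. The sum of all 20 was 32.3 to 34.7 FPKM with scrambled siRNA and 46.2 to 46.7 FPKM with LncND siRNA. Of 14 epithelial markers 3 had a mean of at least 1 FPKM. Of these 3, 2 rose, and 1 of the 2 had 1 group below 1 FPKM. The sum of all 14 was 6.18 to 6.36 FPKM with scrambled siRNA and 15.7 to 15.9 FPKM with LncND siRNA, with CDH1 and KRT8 under 0.1 FPKM. None of 10 endothelial markers and 1 of 10 blood markers reached 1 FPKM. The endothelial sum was 1.77 to 2.19 FPKM with scrambled siRNA and 2.5 to 2.61 FPKM with LncND siRNA, and the blood sum was 1.71 to 2.06 FPKM with scrambled siRNA and 2.14 to 2.41 FPKM with LncND siRNA, with PECAM1 and PTPRC under 0.1 FPKM. Fibroblast and muscle markers were present, 8 of 13 at 1 FPKM or more, with a summed level of 133 to 138 FPKM with scrambled siRNA and 174 to 182 FPKM with LncND siRNA. Of the 8 genes 4 rose and 3 fell (median 0.03). DCN, the proteoglycan decorin, rose from 16.1 ± 1.13 to 53 ± 1.98 FPKM and ACTA2, smooth muscle actin, from 6.99 ± 0.574 to 28 ± 1.39 FPKM, while PDGFRA, PDGFRB and COL1A1 fell. MYH11, DES, MYOD1 and MYOG were under 0.1 FPKM. The part of other cell types in the results was not tested. In RNA from whole cultures, fewer cells of a state and less RNA per cell cannot be told apart.

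Most expressed genes changed, and most changes were small. limma called 66.9% of the 12601 genes, with 36.6% higher and 30.3% lower, and the 3 libraries of each group did not overlap for 70.9% of genes. Quantile normalization turned this balance, to 4028 genes higher and 4655 lower. Counts in the gene lists below are read against these shares. A rise of 1.5-fold or more was called for 8.28% of genes and a fall of that size for 4.06%. Large changes leaned upward: 304 genes rose 2-fold or more and 19 fell 2-fold or more, with 38 such falls without LncND siRNA replicate 1. With a pseudocount of 0.1 in place of 1 these counts were 501 and 85. Of the 298 genes that passed the filter with 1 group below 1 FPKM, 188 rose and 53 fell.

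**Figure D1:**
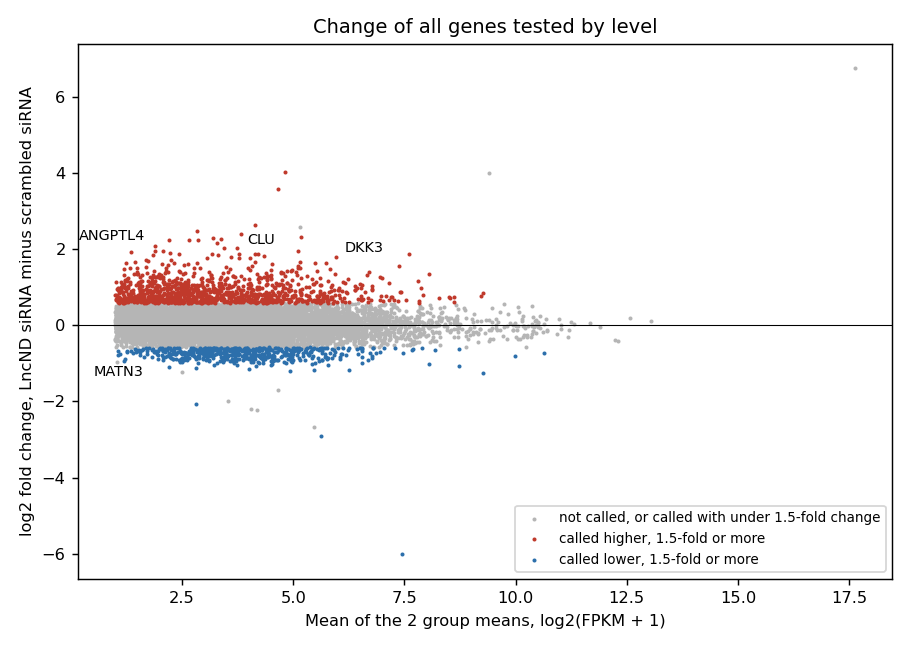
Each point is 1 of the 12601 genes tested, with the mean of both group means on the x axis, as log2(FPKM + 1), and the log2 fold change on the y axis. Coloured points changed by 1.5-fold or more with an adjusted p under 0.05. More points lie above 1 than below -1, and the far right grey point is RNY4, which was not called.

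Among the largest rises were secreted and signalling proteins. ANGPTL4, a secreted inhibitor of lipoprotein lipase (chromosome 19, 8429011 to 8439257), stood at 0.639, 0.747 and 0.451 FPKM in the scrambled siRNA libraries and 6.18, 7.2 and 6.35 FPKM in the LncND siRNA libraries (log2 fold change 2.23 ± 0.079 SE, adjusted p = 1.77e-08). CLU, the secreted chaperone clusterin (chromosome 8, 27454434 to 27472328), stood at 4.55, 4.35 and 3.74 FPKM in the scrambled siRNA libraries and 19.9, 21.5 and 19.6 FPKM in the LncND siRNA libraries (log2 fold change 2.04 ± 0.062 SE, adjusted p = 7.66e-09). DUSP4, a phosphatase that inactivates MAP kinases (chromosome 8, 29190579 to 29208267), stood at 13.6, 12.8 and 13 FPKM in the scrambled siRNA libraries and 50.1, 55.6 and 54.9 FPKM in the LncND siRNA libraries (log2 fold change 1.95 ± 0.047 SE, adjusted p = 2.56e-09). In all 3 genes every LncND siRNA library was above every scrambled siRNA library. ANGPTL4 was below 1 FPKM with scrambled siRNA, as was the next gene. CHST15, a sulfotransferase of chondroitin sulfate, rose from 0.426 ± 0.0222 to 5 ± 0.575 FPKM (log2 fold change 2.07 ± 0.074 SE, adjusted p = 1.83e-08). EDA2R, a receptor of the tumour necrosis factor family, rose from 3.28 ± 0.246 to 16.5 ± 1.26 FPKM (log2 fold change 2.03 ± 0.063 SE, adjusted p = 7.66e-09).

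The largest falls held a matrix protein and an enzyme of guanine nucleotide synthesis beside genes of cell division. IMPDH1, an enzyme of guanine nucleotide synthesis (chromosome 7, 128032331 to 128050036), stood at 71.6, 74.6 and 73.7 FPKM in the scrambled siRNA libraries and 39.7, 32.6 and 32.8 FPKM in the LncND siRNA libraries (log2 fold change -1.05 ± 0.067 SE, adjusted p = 5.55e-07). Every LncND siRNA library was below every scrambled siRNA library. MATN3, a matrix protein of cartilage (chromosome 2, 20191813 to 20212455), fell from 5.3 ± 0.213 to 1.96 ± 0.171 FPKM (log2 fold change -1.09 ± 0.057 SE, adjusted p = 1.61e-07). XRCC2, which acts in homologous recombination, fell from 11.6 ± 0.757 to 5.12 ± 0.625 FPKM (log2 fold change -1.05 ± 0.073 SE, adjusted p = 9.45e-07), and IQGAP3, a scaffold protein linked to proliferation, from 23.4 ± 1.12 to 10.6 ± 0.319 FPKM (log2 fold change -1.07 ± 0.044 SE, adjusted p = 4.13e-08). All 30 cell cycle genes of a reference list fell, with a median of -0.77.

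Genes of regulated secretion rose. Of dense-core granule genes 18 of 28 rose and 3 fell, with a median of 0.58 against 0.02 over all genes tested. The granins and their cargo led, with 6 of 7 higher by limma and none lower (0 lower at an unadjusted p under 0.05) and a median of 1.17. PCSK1N, the granin-like inhibitor of a prohormone convertase (chromosome X, 48689504 to 48694036), stood at 14.9, 15.3 and 17.2 FPKM in the scrambled siRNA libraries and 41.7, 46.3 and 43.3 FPKM in the LncND siRNA libraries (log2 fold change 1.42 ± 0.057 SE, adjusted p = 3.65e-08). SCG5, a chaperone of prohormone convertase 2, rose from 20.5 ± 0.476 to 50.0 ± 1.25 FPKM, and CPE, the carboxypeptidase that trims prohormones, from 57.1 ± 2.22 to 108 ± 3.46 FPKM. CADPS, which primes granules for release (chromosome 3, 62384021 to 62861064), stood at 0.681, 0.746 and 0.767 FPKM in the scrambled siRNA libraries and 4.82, 6.22 and 6.17 FPKM in the LncND siRNA libraries (log2 fold change 1.95 ± 0.082 SE, adjusted p = 4.68e-08). Its scrambled siRNA level was under 1 FPKM, as was that of CARTPT, a neuropeptide precursor, which rose from 0.203 ± 0.133 to 2.37 ± 0.49 FPKM. The neuropeptide precursors did not move as 1 group, since NMU, the precursor of neuromedin U, fell from 20.8 ± 1.11 to 14.5 ± 0.945 FPKM (log2 fold change -0.50 ± 0.054 SE, adjusted p = 2.07e-05).

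Of genes of the synaptic vesicle cycle 33 of 41 rose and 3 fell (median 0.44), and without scrambled siRNA replicate 2 or LncND siRNA replicate 2 the falls numbered 1. The rise covered vesicle proteins (14 of 17), the fusion machinery (13 of 16) and vesicle endocytosis (4 of 5). SYT5, a calcium sensor of exocytosis (chromosome 19, 55684469 to 55691720), stood at 2.68, 2.42 and 2.66 FPKM in the scrambled siRNA libraries and 14.6, 15.6 and 14.8 FPKM in the LncND siRNA libraries (log2 fold change 2.16 ± 0.047 SE, adjusted p = 2e-09). SYN2, which tethers vesicles in reserve, rose from 3.61 ± 0.177 to 7.81 ± 0.244 FPKM (log2 fold change 0.93 ± 0.048 SE, adjusted p = 1.37e-07). Among the 14 catecholamine genes 13 rose and 1 fell. QDPR, which regenerates the cofactor of tyrosine hydroxylase, rose from 28.8 ± 0.325 to 53.8 ± 0.925 FPKM and the monoamine oxidase MAOA from 4.52 ± 0.199 to 9.53 ± 0.504 FPKM. DBH, which turns dopamine into noradrenaline, rose from 357 ± 7.82 to 479 ± 7.75 FPKM (log2 fold change 0.42 ± 0.046 SE, adjusted p = 2.13e-05).

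Among ion channels 25 of 37 rose and 7 fell, and among transmitter receptors 22 of 30 rose and 5 fell, with medians of 0.32 and 0.33. Of these lists 5 and 4 members had 1 group below 1 FPKM. CHRNA3, the nicotinic receptor subunit of autonomic ganglia (chromosome 15, 78885395 to 78913637), stood at 119, 119 and 116 FPKM in the scrambled siRNA libraries and 207, 224 and 216 FPKM in the LncND siRNA libraries (log2 fold change 0.87 ± 0.043 SE, adjusted p = 1.17e-07). CHRNA7, the subunit of the homomeric nicotinic receptor, rose from 3.87 ± 0.241 to 9.21 ± 0.702 FPKM, while CHRNB4, which pairs with CHRNA3, fell from 19.2 ± 0.46 to 15.1 ± 1.46 FPKM (log2 fold change -0.33 ± 0.061 SE, adjusted p = 0.000854). SCN3B, an auxiliary subunit of sodium channels, rose from 4.7 ± 0.232 to 11.4 ± 0.913 FPKM. Of sodium and calcium channel genes 12 of 18 rose and 5 fell, and the falls included the auxiliary calcium channel subunits CACNA2D2, from 94.4 ± 2.19 to 69.8 ± 1.25 FPKM, and CACNG4, from 218 ± 9.58 to 169.8 ± 3.65 FPKM. GRM8, a metabotropic glutamate receptor, fell from 2.02 ± 0.271 to 0.625 ± 0.135 FPKM (log2 fold change -0.90 ± 0.086 SE, adjusted p = 8.58e-06).

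Of axon and growth cone genes 38 of 55 rose and 9 fell (median 0.26). With at least 1 FPKM in both groups, 36 of 53 rose and 9 fell. All 7 intermediate filament genes tested were higher and 14 of 21 microtubule proteins rose. MAP6, which stabilises microtubules, rose from 10.1 ± 0.206 to 24.6 ± 1.38 FPKM, and CNTN1, an axonal adhesion molecule, from 10.7 ± 0.19 to 29.3 ± 2.62 FPKM. Tubulins split, with 6 higher and 5 lower of 12, and the abundant TUBA1B fell from 1438 ± 26.4 to 961 ± 90.0 FPKM (log2 fold change -0.58 ± 0.077 SE, adjusted p = 8.16e-05). Axon guidance genes were counted by family. Of semaphorins and their receptors 9 of 17 rose and 2 fell, and PLXNB2, a semaphorin receptor, rose from 42.8 ± 1.55 to 82.9 ± 5.86 FPKM. Of slits, netrins and their receptors 2 of 9 rose and 6 fell, and UNC5B, a netrin receptor, fell from 108 ± 4 to 71.8 ± 2.26 FPKM (log2 fold change -0.58 ± 0.042 SE, adjusted p = 1.25e-06).

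**Figure D2:**
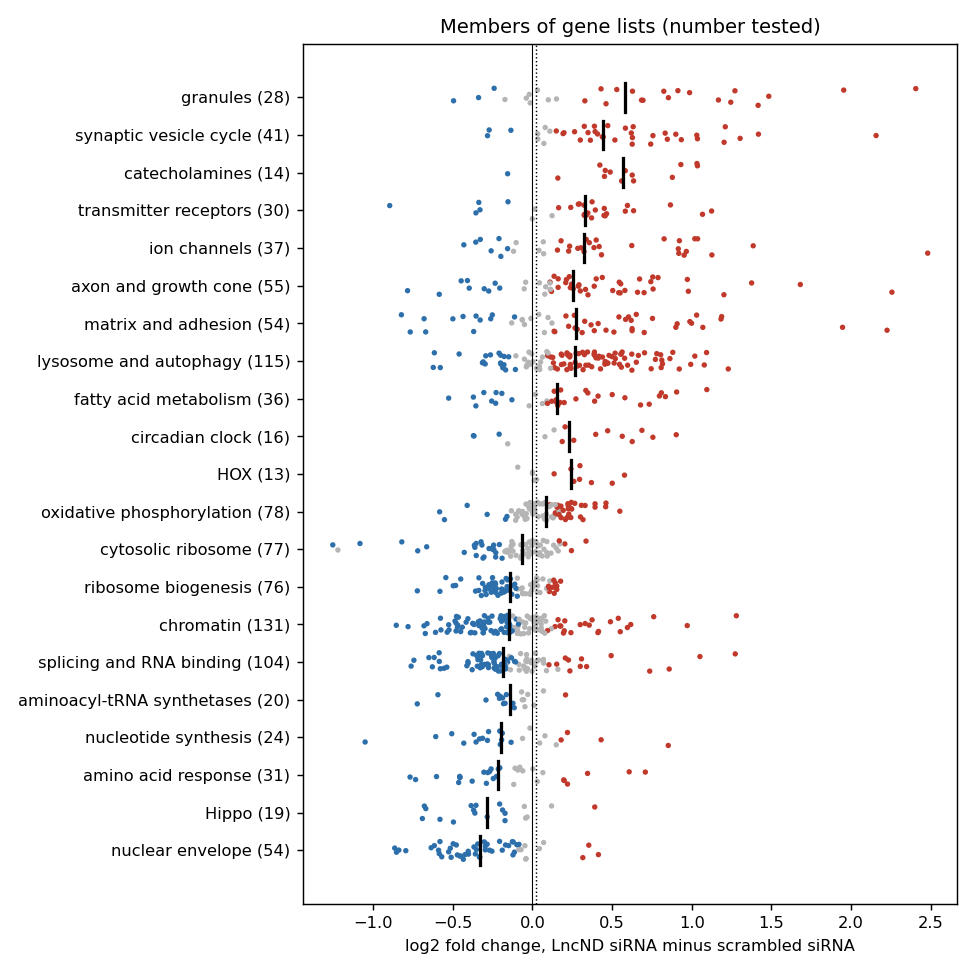
Each point is the log2 fold change of 1 tested member of a gene list, red when called higher, blue when called lower and grey otherwise, with the list's median as a black bar and the median of all genes as a dotted line. Granule, vesicle and catecholamine genes lie mostly to the right of 0 and nuclear envelope genes mostly to the left.

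The transcription factors of noradrenergic identity did not rise with these genes. Of 24 such factors 6 rose and 12 fell (median -0.09), and without LncND siRNA replicate 1 the counts were 9 and 12. Among receptors and ligands of the lineage 8 of 10 rose and 1 fell (median 0.91), and 3 of the 10 had 1 group below 1 FPKM. The zinc finger factor GATA2 fell from 239 ± 3.5 to 178 ± 6.38 FPKM (log2 fold change -0.42 ± 0.043 SE, adjusted p = 1.41e-05), and so did the LIM factor ISL1, from 83.3 ± 1.74 to 64.7 ± 1.9 FPKM (log2 fold change -0.36 ± 0.038 SE, adjusted p = 1.68e-05). PHOX2A, a homeodomain factor of noradrenergic neurons, rose from 190.1 ± 5.98 to 268 ± 10.4 FPKM (log2 fold change 0.49 ± 0.047 SE, adjusted p = 7.71e-06). MYCN and MYC, paralogs that drive growth, moved in opposite directions. MYCN (chromosome 2, 16080683 to 16087129) stood at 0.972, 1.15 and 1.1 FPKM in the scrambled siRNA libraries and 3.77, 4.73 and 3.97 FPKM in the LncND siRNA libraries (log2 fold change 1.31 ± 0.075 SE, adjusted p = 2.69e-07), and MYC fell from 18.9 ± 0.372 to 10.0 ± 0.326 FPKM (log2 fold change -0.85 ± 0.039 SE, adjusted p = 7.55e-08). RET, the receptor of GDNF family ligands (chromosome 10, 43572517 to 43625797), stood at 154, 160.0 and 161 FPKM in the scrambled siRNA libraries and 294, 318 and 318 FPKM in the LncND siRNA libraries (log2 fold change 0.96 ± 0.047 SE, adjusted p = 1.08e-07). Among SOX and proneural factors 10 of 23 rose and 7 fell. MYT1, a zinc finger factor of neurons, rose from 2.63 ± 0.0688 to 6.58 ± 0.316 FPKM, SCRT1, a neuronal repressor, from 3.04 ± 0.0324 to 7.32 ± 0.309 FPKM, and SOX11 fell from 24.8 ± 0.441 to 18 ± 0.56 FPKM. REST, the repressor of neuronal genes, fell from 7.94 ± 0.246 to 5.01 ± 0.218 FPKM (log2 fold change -0.57 ± 0.046 SE, adjusted p = 2.41e-06). Of 13 HOX genes tested 8 rose and none was called lower (median 0.24), with HOXD4 rising from 4.61 ± 0.38 to 7.37 ± 0.454 FPKM. At an unadjusted p under 0.05 in limma, 0 HOX genes were lower.

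Genes of the mesenchymal state moved apart. None of its 10 tested transcription factors was called higher by limma (0 at an unadjusted p under 0.05) and 6 fell, while 10 of 20 matrix and surface genes rose and 8 fell. The Hippo effector YAP1 fell from 3.58 ± 0.133 to 1.85 ± 0.264 FPKM (log2 fold change -0.69 ± 0.07 SE, adjusted p = 1.25e-05), and in the Hippo list 1 of 19 rose and 14 fell (median -0.28), with TEAD2, a partner factor of YAP1, falling from 60.8 ± 1.05 to 37.6 ± 0.849 FPKM. Without scrambled siRNA replicate 3 the Hippo list had 2 rises. FN1, fibronectin, fell from 23.4 ± 0.485 to 11.5 ± 1.1 FPKM (log2 fold change -0.97 ± 0.059 SE, adjusted p = 4.29e-07), and the elastin and collagen crosslinking enzyme LOX from 2.39 ± 0.279 to 1.14 ± 0.132 FPKM. S100A6, a calcium-binding protein, rose from 72.7 ± 2.03 to 142 ± 12.1 FPKM. Over matrix and adhesion genes 33 of 54 rose and 12 fell (median 0.27), and 4 of the 54 had 1 group below 1 FPKM. With at least 1 FPKM in both groups, 30 of 50 rose and 11 fell. Integrin ITGA3 rose from 4.18 ± 0.111 to 10.8 ± 0.456 FPKM and protocadherin PCDH17 from 2.07 ± 0.17 to 6 ± 0.653 FPKM, while tenascin TNC fell from 5.08 ± 0.288 to 2.58 ± 0.215 FPKM and laminin LAMA1 from 2.98 ± 0.156 to 1.25 ± 0.0994 FPKM.

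**Figure D3:**
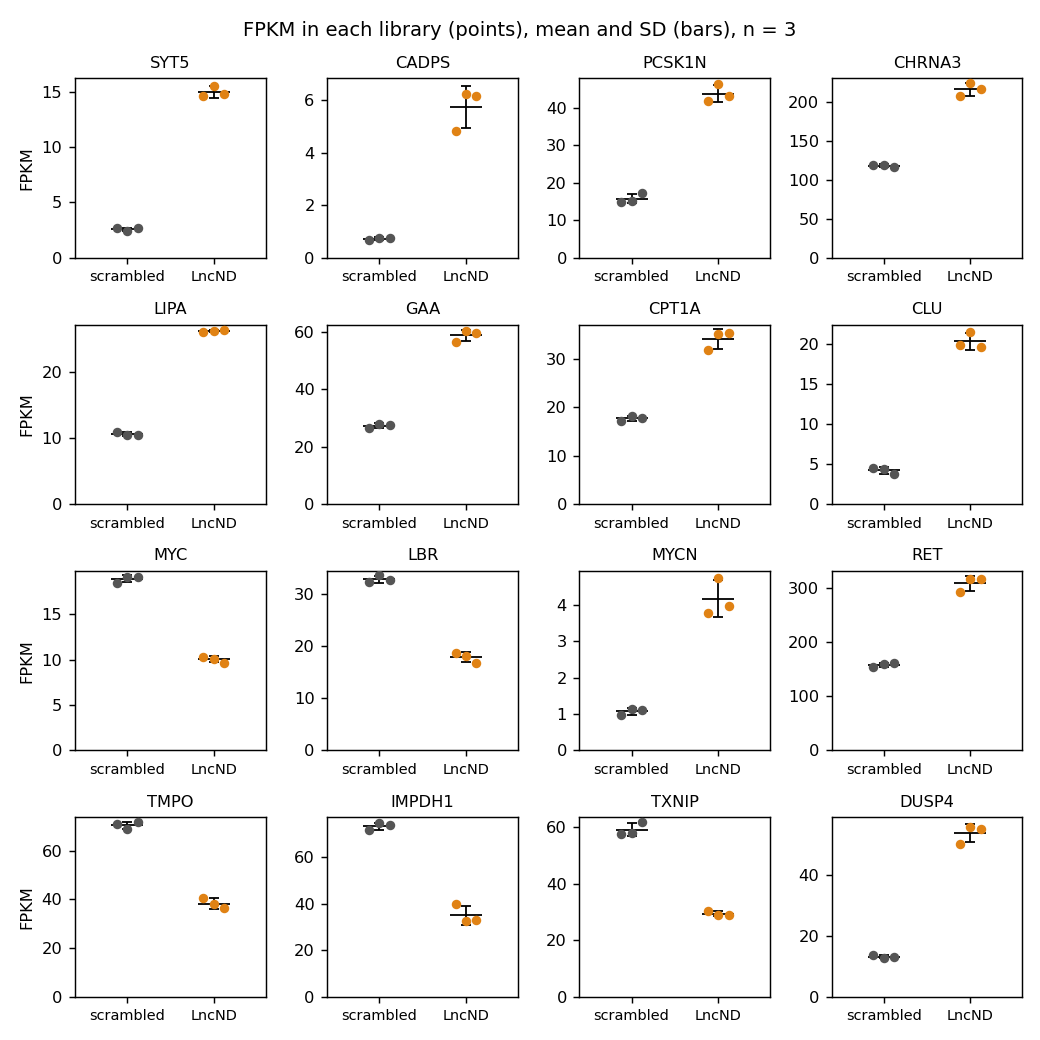
FPKM in each of the 3 libraries per group (points) with the mean and SD (bars) for 16 genes, each on an axis from 0. The groups do not overlap in any of the 16 panels, with MYC, LBR, TMPO, IMPDH1 and TXNIP lower and the other 11 genes higher in the LncND siRNA libraries.

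Lysosome and autophagy genes had the highest number of rising members among the lists, but not the highest share. Their share was 67%, below those of several lists, among them catecholamine (92.9%), synaptic vesicle (80.5%) and transmitter receptor genes (73.3%). Of 115 tested genes 77 rose and 19 fell (median 0.27), and all 115 had at least 1 FPKM in both groups. By role, 29 of 42 rose and 9 fell among lysosomal enzymes, 23 of 33 rose and 3 fell among membrane proteins and subunits of the proton pump, and 25 of 40 rose and 7 fell among autophagy genes. LIPA, the lysosomal acid lipase (chromosome 10, 90973326 to 91011660), stood at 10.9, 10.5 and 10.4 FPKM in the scrambled siRNA libraries and 26.1, 26.1 and 26.3 FPKM in the LncND siRNA libraries (log2 fold change 1.23 ± 0.035 SE, adjusted p = 5.22e-09). GAA, the acid alpha-glucosidase that degrades glycogen (chromosome 17, 78075355 to 78093679), stood at 26.4, 28 and 27.5 FPKM in the scrambled siRNA libraries and 56.6, 60.2 and 59.7 FPKM in the LncND siRNA libraries (log2 fold change 1.08 ± 0.04 SE, adjusted p = 2.22e-08). In both genes the groups were far apart. CTSD, the aspartic protease cathepsin D, rose from 51.7 ± 1.84 to 71.6 ± 0.765 FPKM (log2 fold change 0.46 ± 0.038 SE, adjusted p = 2.87e-06). TFEB, a transcription factor of lysosomal genes, rose from 2.81 ± 0.207 to 4.02 ± 0.215 FPKM (log2 fold change 0.40 ± 0.058 SE, adjusted p = 0.000165), and MTOR, the growth kinase that restrains it, stood at 12.3 ± 0.456 with scrambled siRNA and 12.8 ± 0.917 FPKM with LncND siRNA without passing the test (adjusted p = 0.414). Falls included the protease CTSC, from 33.8 ± 1.05 to 21.7 ± 0.785 FPKM, and the autophagy genes ATG9A, from 11.2 ± 0.331 to 6.94 ± 0.303 FPKM, and ATG13, from 12.7 ± 0.276 to 8.2 ± 0.278 FPKM.

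The nuclear envelope list moved the other way. Of 54 genes 44 fell and 3 rose (median -0.33). TMPO, an inner membrane protein that binds lamins (chromosome 12, 98909351 to 98944157), stood at 70.8, 69 and 71.7 FPKM in the scrambled siRNA libraries and 40.5, 38.1 and 36.3 FPKM in the LncND siRNA libraries (log2 fold change -0.86 ± 0.045 SE, adjusted p = 1.5e-07). LBR, the lamin B receptor, fell from 32.7 ± 0.675 to 17.9 ± 0.972 FPKM (log2 fold change -0.84 ± 0.044 SE, adjusted p = 1.61e-07). NUP210, a membrane protein of the nuclear pore, fell from 28.8 ± 0.876 to 15.5 ± 0.341 FPKM, and TMEM48, also known as NDC1, which anchors the pore, from 20.2 ± 0.276 to 11.2 ± 0.973 FPKM. The B-type lamins fell, LMNB1 from 71.8 ± 2.74 to 48.2 ± 4.25 FPKM and LMNB2 from 44 ± 0.421 to 29.1 ± 0.0999 FPKM, and the A-type lamin LMNA rose from 82.1 ± 1.94 to 109.7 ± 1.02 FPKM (log2 fold change 0.41 ± 0.036 SE, adjusted p = 4.58e-06). EMD, the LEM-domain protein emerin, rose from 41.9 ± 1.18 to 52.4 ± 2.78 FPKM. The cell cycle reference list fell in the same libraries, with a median of -0.77, and its part in this result was not tested.

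Promoter sequences were read to see whether these 2 lists differ in known elements. List promoters were taken by membership, whatever the member's call, so rising and falling members of a list were not compared. RefSeq promoters on GRCh38.p14, of 250 bases before and 50 after the start site, matched 9963 of the 12601 genes. The letters of 13 motifs, chosen after the data were seen, were searched on both strands. They were the CHR, the E-box and its extended form, spelled out with their shares, the CCAAT box, an E2F site in either of its forms (TTTGGCGC and TTTCCCGC, searched separately), the cAMP response element (TGACGTCA), the GC box (GGGCGG), an ETS site (CTTCCGG), the TATA box (TATAAA), the NRF1 site, the AP-1 site (TGACTCA) and the letters TTCGAA. The CHR (TTTGAA), a promoter element of cell cycle genes, was present in 15.4% of all promoters and 9.2% of those of tested genes. It was present in 27.3% of the 414 promoters of genes called lower by 1.5-fold or more and 6.4% of the 793 called higher by that much, and in 11 of the 49 nuclear envelope promoters. The E-box CACGTG, part of the element bound by TFEB, was present in 7.4% of all promoters, 10.2% of those tested and 19 of 85 lysosome and autophagy promoters (22.4%). The E-box was also in 6 of 49 nuclear envelope promoters (12.2%) and in 6 of 25 promoters of the cell cycle reference list (24%), whose genes all fell. The CHR was in 7 lysosome and autophagy promoters (8.2%). With 2 more bases, GTCACGTG, which contains the E-box, the shares were 2.5%, 4.6% and 17.6%. Over all genes called higher by 1.5-fold or more, the E-box share was 7.7%. The CCAAT box was in 53.4% of strongly falling promoters, 37% of tested and 35.7% of all. The E2F site TTTGGCGC was in 5.8% of strongly falling promoters and 1.1% of tested, and TTTCCCGC in 5.6% and 2.6%. The ETS site was in 9.8% of promoters called higher by 1.5-fold or more, 20.3% of strongly falling and 20% of tested. In the cell cycle reference list the CHR was in 32% of promoters and the CCAAT box in 80%, against 22.4% and 44.9% in the nuclear envelope list. A match is a description of letters and not a bound site.

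The sequences are the 250 bases before the start site of 3 called genes of each list that hold the motif there. They were taken by size of change, but not from every gene of the lists, so larger changes may exist. Because they were chosen for the motif and the change, they are examples and do not test the contrast of the 2 lists. The CHR was in 11 of 49 nuclear envelope promoters and the E-box in 19 of 85 lysosome and autophagy promoters. Capitals mark the motif, on either strand, and each run reads 5′ to 3′ on the gene's strand. TMEM48 (chr1:53838297-53838546, minus strand), NUP153 (chr6:17706926-17707175, minus strand), a pore basket protein, and LMNB2 (chr19:2456960-2457209, minus strand) fell. GAA (chr17:80101331-80101580, plus strand), SUMF1 (chr3:4467270-4467519, minus strand), which activates sulfatases, and GALNS (chr16:88856948-88857197, minus strand), a sulfatase, rose.
TMEM48: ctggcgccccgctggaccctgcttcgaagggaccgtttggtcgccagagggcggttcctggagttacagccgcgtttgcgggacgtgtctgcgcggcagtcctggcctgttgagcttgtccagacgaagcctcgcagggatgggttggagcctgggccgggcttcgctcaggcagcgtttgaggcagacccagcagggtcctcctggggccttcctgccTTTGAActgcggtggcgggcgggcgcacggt
NUP153: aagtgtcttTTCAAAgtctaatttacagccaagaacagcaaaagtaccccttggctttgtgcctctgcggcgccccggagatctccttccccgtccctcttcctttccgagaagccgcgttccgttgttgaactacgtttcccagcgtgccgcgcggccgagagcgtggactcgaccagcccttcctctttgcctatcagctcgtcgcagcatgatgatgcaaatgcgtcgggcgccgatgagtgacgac
LMNB2: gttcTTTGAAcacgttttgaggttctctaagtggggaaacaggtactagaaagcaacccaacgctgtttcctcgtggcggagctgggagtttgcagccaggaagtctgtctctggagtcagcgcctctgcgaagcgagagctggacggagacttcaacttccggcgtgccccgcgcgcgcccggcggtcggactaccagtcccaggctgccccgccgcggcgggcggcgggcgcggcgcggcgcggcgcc
GAA: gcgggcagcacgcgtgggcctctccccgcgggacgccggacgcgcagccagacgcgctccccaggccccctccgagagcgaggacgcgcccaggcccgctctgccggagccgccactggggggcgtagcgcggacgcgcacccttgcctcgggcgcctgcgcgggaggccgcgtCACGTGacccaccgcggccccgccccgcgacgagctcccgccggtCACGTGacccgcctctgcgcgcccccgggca
SUMF1: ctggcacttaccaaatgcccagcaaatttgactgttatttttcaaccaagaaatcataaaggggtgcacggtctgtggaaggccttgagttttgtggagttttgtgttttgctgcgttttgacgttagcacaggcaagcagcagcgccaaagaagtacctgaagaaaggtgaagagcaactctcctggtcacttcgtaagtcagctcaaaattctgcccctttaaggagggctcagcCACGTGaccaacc
GALNS: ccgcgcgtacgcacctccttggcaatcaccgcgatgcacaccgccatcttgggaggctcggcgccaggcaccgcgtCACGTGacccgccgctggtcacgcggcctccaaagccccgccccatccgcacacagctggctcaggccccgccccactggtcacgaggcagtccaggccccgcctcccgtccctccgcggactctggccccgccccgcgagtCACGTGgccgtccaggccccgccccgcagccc
The CHR begins 31 bases before the start of TMEM48 and 241 and 246 bases before those of NUP153 and LMNB2, where it stands near the far end of the window. GAA and GALNS each hold 2 E-boxes. SUMF1 rose from 8.01 ± 0.44 to 16.9 ± 0.698 FPKM (log2 fold change 0.99 ± 0.048 SE, adjusted p = 1.04e-07) and GALNS from 10.1 ± 0.377 to 18.5 ± 1.07 FPKM (log2 fold change 0.81 ± 0.049 SE, adjusted p = 3.91e-07), and NUP153 fell from 25.5 ± 0.62 to 16.7 ± 0.881 FPKM (log2 fold change -0.58 ± 0.044 SE, adjusted p = 1.63e-06).

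RNA processing and chromatin genes fell by small amounts. Of splicing and RNA binding genes 13 of 104 rose and 63 fell (median -0.19), with the falls in hnRNP and SR proteins (28 of 38) and in the snRNP core (24 of 38). Neural regulators of splicing split, 10 higher and 11 lower of 28. CELF3, a neuronal RNA-binding protein, rose from 13.9 ± 0.278 to 30.0 ± 1.96 FPKM and ELAVL4, which stabilises neuronal mRNAs, from 50.7 ± 0.618 to 93 ± 7.63 FPKM. MSI2, an RNA-binding protein of progenitors, fell from 73.2 ± 2.25 to 46.4 ± 5.21 FPKM and QKI from 13.1 ± 0.238 to 7.32 ± 0.212 FPKM. Of chromatin genes 23 of 131 rose and 72 fell (median -0.15). DNMT1, the maintenance DNA methyltransferase, fell from 50.7 ± 0.819 to 31.3 ± 0.283 FPKM, the Polycomb methyltransferase EZH2 from 41.4 ± 1.13 to 25.7 ± 2.69 FPKM and the acetyltransferase KAT6A from 10.9 ± 0.407 to 5.56 ± 0.381 FPKM (log2 fold change -0.85 ± 0.052 SE, adjusted p = 3.91e-07). Of remodellers and cohesin genes in this list 5 of 40 rose and 25 fell, and the rises included the BAF subunits ACTL6B, from 15.3 ± 0.12 to 24 ± 0.46 FPKM, and SMARCD3, from 19.3 ± 0.897 to 33.4 ± 0.331 FPKM. HDAC10, a deacetylase of polyamines, rose from 11.4 ± 0.934 to 29.1 ± 0.5 FPKM (log2 fold change 1.28 ± 0.052 SE, adjusted p = 3.89e-08). Within the microRNA machinery 4 of 19 genes rose and 9 fell. AGO2, the slicing Argonaute, fell from 8.5 ± 0.469 to 5.45 ± 0.894 FPKM, XPO5, which exports precursor microRNAs, from 29.4 ± 0.888 to 19.2 ± 0.352 FPKM, and DICER1 rose from 8.81 ± 0.417 to 11.2 ± 1.18 FPKM.

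**Figure D4:**
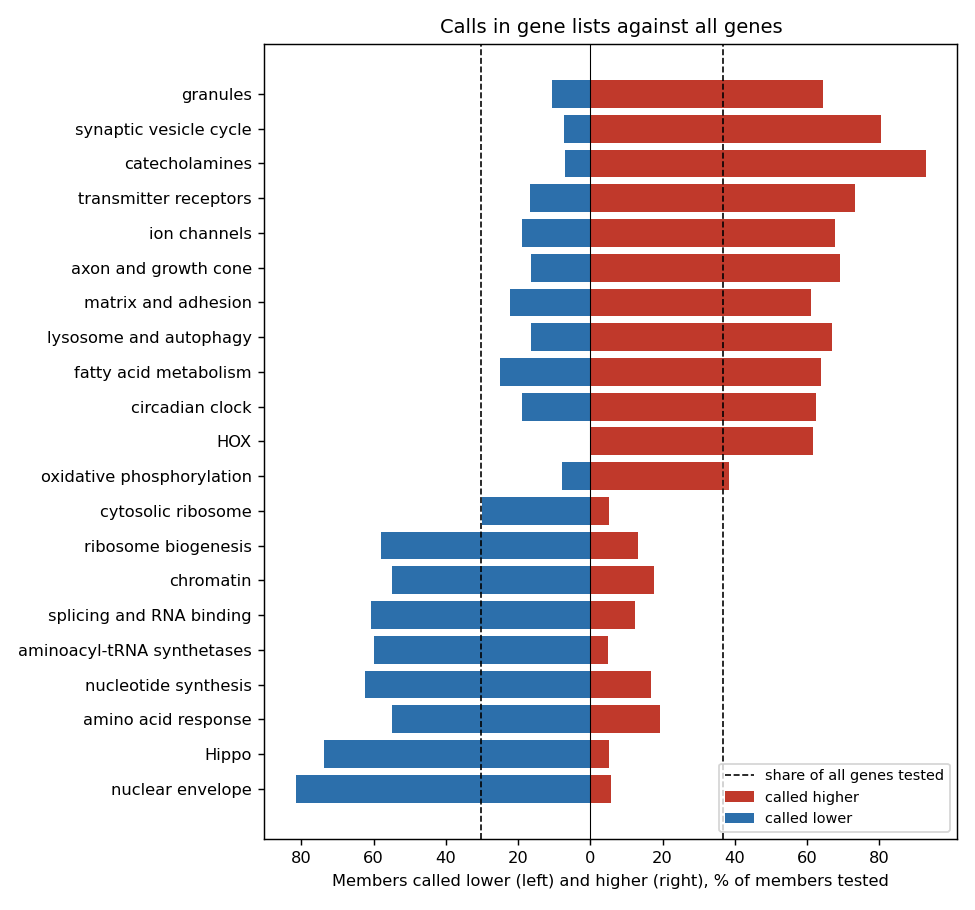
Bars give the share of the tested members of each list called higher (right) or lower (left), and dashed lines the shares over all 12601 genes, 36.6% and 30.3%. Vesicle and catecholamine genes pass the right line by the widest margin and nuclear envelope and Hippo genes the left line.

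Biosynthetic genes fell in several lists. Of ribosome biogenesis genes 10 of 76 rose and 44 fell (median -0.14), with DDX21, a helicase of ribosomal RNA processing, falling from 80.7 ± 1.28 to 53.7 ± 1.02 FPKM. The 10 rises of this list numbered 5, 3 and 5 without scrambled siRNA replicate 1, scrambled siRNA replicate 2 and LncND siRNA replicate 2. Of aminoacyl-tRNA synthetases 1 of 20 rose and 12 fell, with AARS falling from 45.2 ± 0.848 to 27 ± 1.51 FPKM. Of nucleotide synthesis genes 4 of 24 rose and 15 fell (median -0.20), and the IMPDH enzymes diverged, IMPDH1 falling as above and IMPDH2 rising from 105 ± 1.64 to 122 ± 4.07 FPKM (log2 fold change 0.22 ± 0.04 SE, adjusted p = 0.000708). Of genes of the amino acid response, in which ATF4 is a main transcription factor, 17 of 31 fell and 6 rose. PHGDH, the first enzyme of serine synthesis, fell from 83.6 ± 3.35 to 48.8 ± 4.65 FPKM (log2 fold change -0.77 ± 0.063 SE, adjusted p = 2.85e-06) and SHMT2 from 62.1 ± 2.52 to 40.7 ± 4.33 FPKM, ATF4 itself fell from 138 ± 5.79 to 118 ± 8.18 FPKM, and DDIT3 and SESN2 rose from 10.2 ± 0.468 to 16.1 ± 0.792 FPKM and from 6.31 ± 0.252 to 10.9 ± 0.4 FPKM. Cytosolic ribosomal protein genes gave no stable count: 4 of 77 rose and 23 fell, and without LncND siRNA replicate 1 the falls numbered 42. Its rises numbered 1, 2 and 2 without scrambled siRNA replicates 1, 2 and 3. Of oxidative phosphorylation genes 30 of 78 rose and 6 fell (median 0.09), with 16 falls without that library, and the share of rises was close to that of all genes.

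Fuel use genes changed unevenly. Of fatty acid oxidation genes 18 of 22 rose and 3 fell (median 0.24). CPT1A, the rate-limiting enzyme of fatty acid entry into mitochondria (chromosome 11, 68522088 to 68609399), stood at 17.2, 18.3 and 17.7 FPKM in the scrambled siRNA libraries and 31.8, 35.2 and 35.3 FPKM in the LncND siRNA libraries (log2 fold change 0.90 ± 0.047 SE, adjusted p = 1.59e-07). ETFDH, which passes electrons from this pathway to ubiquinone, rose from 4.31 ± 0.273 to 8.48 ± 0.64 FPKM. Fatty acid synthesis showed 5 of 14 genes higher and 6 lower, with SCD, the desaturase, falling from 79.3 ± 1.28 to 54.8 ± 1.52 FPKM and FASN, the synthase, at 74.3 ± 4.87 with scrambled siRNA and 73.2 ± 4.44 FPKM with LncND siRNA (adjusted p = 0.765). Cholesterol enzymes split, 6 higher and 4 lower of 19. DHCR7, a reductase of the last steps, fell from 17.7 ± 0.775 to 11.9 ± 0.931 FPKM and the cholesterol exporter ABCG1 rose from 2.81 ± 0.0357 to 6.57 ± 0.586 FPKM. Glycolytic enzymes showed 6 rises and 8 falls among 22. SLC2A1, the basal glucose transporter, fell from 26.3 ± 0.679 to 15 ± 0.448 FPKM (log2 fold change -0.77 ± 0.039 SE, adjusted p = 1.22e-07) and hexokinase HK2 from 22.3 ± 0.24 to 15.6 ± 0.107 FPKM. TXNIP, which restrains glucose uptake and binds thioredoxin (chromosome 1, 145438462 to 145442628), stood at 57.5, 57.9 and 61.8 FPKM in the scrambled siRNA libraries and 30.4, 29 and 29 FPKM in the LncND siRNA libraries (log2 fold change -0.98 ± 0.041 SE, adjusted p = 4.54e-08). The metallothionein MT2A fell from 21.4 ± 0.59 to 11.9 ± 2.06 FPKM, and FTL, the ferritin light chain, rose from 444 ± 16.3 to 749 ± 21.1 FPKM (log2 fold change 0.75 ± 0.053 SE, adjusted p = 1.1e-06).

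Protein quality control genes were counted by compartment, and no difference between compartments was tested. Among ER folding genes 10 of 38 rose and 14 fell, with the chaperone HYOU1 falling from 64.7 ± 1.09 to 38.1 ± 1.6 FPKM, HSPA5, the main ER chaperone, from 124 ± 3.52 to 105 ± 10.1 FPKM, and the cochaperone DNAJB9 rising from 7.94 ± 0.263 to 13.7 ± 0.42 FPKM. Among cytosolic chaperones 9 of 41 rose and 19 fell, with HSP90AA1 falling from 775 ± 38.7 to 599 ± 42.2 FPKM. Among proteasome genes 13 of 41 rose and 4 fell, and without LncND siRNA replicate 1 the falls numbered 9. They numbered 2 without scrambled siRNA replicate 3, LncND siRNA replicate 2 or LncND siRNA replicate 3. The largest rises in that list were immunoproteasome subunits and activators, PSMB10 from 10.4 ± 0.506 to 21 ± 0.528 FPKM, PSMB8 from 1.73 ± 0.272 to 3.66 ± 0.156 FPKM and PSME1 from 82 ± 0.752 to 129 ± 8.41 FPKM. Of 11 antigen presentation genes 6 rose, with HLA-C from 18.1 ± 0.122 to 36.5 ± 1.28 FPKM (log2 fold change 0.97 ± 0.037 SE, adjusted p = 2.71e-08). The 1 fall, of ERAP1, did not pass the test without scrambled siRNA replicate 1 or 2 or LncND siRNA replicate 1 or 3 (limma adjusted p = 0.0605 to 0.131). HLA-C shares sequence with other class I genes, and reads may have been split between them. Antiviral genes gave 15 of 29 higher and 7 lower. STAT3 rose from 14.2 ± 0.339 to 23.2 ± 1.44 FPKM, and ADAR, which edits double-stranded RNA, fell from 79.4 ± 0.998 to 58.6 ± 2.9 FPKM.

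Signalling genes showed changes at phosphatases and feedback regulators. Of MAP kinase phosphatases and ERK feedback genes, counted as 1 list, 11 of 21 rose and 4 fell (median 0.30). The list is not confined to genes that act on ERK, and 1 member had 1 group below 1 FPKM. Beside DUSP4, the phosphatases DUSP8 and DUSP10 rose from 5.56 ± 0.141 to 12.5 ± 0.934 FPKM and from 1.19 ± 0.126 to 3.88 ± 0.115 FPKM, and DUSP7 fell from 14.6 ± 0.318 to 8.15 ± 0.269 FPKM. Insulin-like growth factor genes fell in 7 of 12 cases and rose in 2, with IGF2 falling from 42.9 ± 0.884 to 27.3 ± 1.93 FPKM (log2 fold change -0.63 ± 0.049 SE, adjusted p = 2.05e-06). Among Wnt genes 12 of 35 rose and 17 fell. The secreted antagonists DKK3 and SFRP1 rose from 26.9 ± 0.44 to 95.2 ± 3.08 FPKM (log2 fold change 1.79 ± 0.038 SE, adjusted p = 2e-09) and from 14.4 ± 0.331 to 32.2 ± 1.79 FPKM, the receptor LGR5 fell from 74.4 ± 2.17 to 45.8 ± 4.24 FPKM, and LEF1, a transcription factor, was lower at 4.84 ± 0.328 with scrambled siRNA and 2.7 ± 0.144 FPKM with LncND siRNA. In the TGF-beta and BMP list 19 of 37 rose and 12 fell, with the BMP antagonist GREM1 rising from 1.44 ± 0.19 to 5.25 ± 0.225 FPKM and the activin subunit INHBA falling from 9.28 ± 0.302 to 5.45 ± 0.0628 FPKM. SMO, the signalling receptor of the Hedgehog pathway, fell from 25.9 ± 0.688 to 17 ± 0.543 FPKM. Of clock genes 10 of 16 rose and 3 fell (median 0.23), and among repressors NR1D1, NR1D2 and CRY2 rose from 1.53 ± 0.0635 to 3.74 ± 0.545 FPKM, from 10.4 ± 0.264 to 17.4 ± 1.04 FPKM and from 2.78 ± 0.147 to 5.38 ± 0.121 FPKM, while CRY1 fell from 9.29 ± 0.0494 to 6.96 ± 0.268 FPKM and the repressor NFIL3 from 6.98 ± 0.823 to 5.18 ± 0.411 FPKM. ARNTL, an activator of the loop, fell from 12.8 ± 0.419 to 10.9 ± 0.476 FPKM. Among cell death genes 16 of 34 rose and 9 fell, and with at least 1 FPKM in both groups 14 of 32 rose and 9 fell. The death receptor FAS rose from 0.984 ± 0.163 to 6.39 ± 0.137 FPKM and the pore-forming BAX from 89 ± 3.22 to 191 ± 2.25 FPKM, and BCL2L1, an inhibitor of apoptosis, fell from 19.1 ± 0.752 to 13.4 ± 0.529 FPKM. Of 13 reference genes 1 rose and 3 fell, and without LncND siRNA replicate 1 the counts were 2 and 5. B2M stood at 136 ± 5.14 with scrambled siRNA and 140.2 ± 10.1 FPKM with LncND siRNA (adjusted p = 0.544) and GAPDH at 1911 ± 34.8 with scrambled siRNA and 2125 ± 61.9 FPKM with LncND siRNA (adjusted p = 0.0813). GAPDH was called higher under quantile normalization, by limma without a trend, and without LncND siRNA replicate 1 (0.13, limma adjusted p = 0.0264).

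The response was then set against that to the miR-143-3p mimic, which has its own control libraries. For the 12327 genes tested in both tables, the LncND siRNA effect minus the mimic effect was tested in a single limma model over the 10 libraries. The tables were normalised separately, so only effects and no levels were compared. The effect of LncND siRNA was higher than that of the mimic for 38.1% of genes and lower for 22% of genes, a split of 63.4% higher among 7416 called genes that became 51.3% under median-ratio scaling. With 1885 genes called in both comparisons in opposite directions and with a called difference, 1310 rose with LncND siRNA and fell with the mimic and 575 did the reverse. The median change over all genes was 0.02 with LncND siRNA and -0.06 with the mimic.

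Lists with many differing members included matrix, HOX, lysosomal and oxidative phosphorylation genes on one side and ribosomal protein genes on the other. They were not the only ones. The LncND effect was higher for 21 of 32 cholesterol synthesis genes and lower for 2, and higher for 24 of 38 ER folding genes and lower for 3. For chromatin genes it was higher for 25 of 130 and lower for 59. In matrix and adhesion genes the LncND effect was the higher one for 33 of 52 members and the lower one for 7 (median 0.27 with LncND siRNA and -0.24 with the mimic). SPOCK1, a matrix proteoglycan, changed by -0.33 with LncND siRNA and 1.12 with the mimic (difference -1.45 ± 0.071 SE, adjusted p = 2.8e-09). In HOX genes 11 of 13 members were higher and none lower by limma, with 0 lower at an unadjusted p under 0.05 (median 0.24 with LncND siRNA and -0.35 with the mimic). In lysosome and autophagy genes 72 of 114 members were higher and 19 lower (median 0.26 with LncND siRNA and 0.02 with the mimic), and under median-ratio scaling 63 higher and 20 lower. GABARAPL1, an autophagosome protein, changed by 0.66 with LncND siRNA and -0.98 with the mimic (difference 1.65 ± 0.086 SE, adjusted p = 5.57e-09). In oxidative phosphorylation genes 50 of 78 members were higher and 1 lower (median 0.09 with LncND siRNA and -0.19 with the mimic), and under median-ratio scaling 41 higher and 2 lower. With the mimic 53 of the 78 fell and 3 rose, and with LncND siRNA 6 fell and 30 rose. In cytosolic ribosomal protein genes none was higher by limma, with 0 higher at an unadjusted p under 0.05, and 45 of 77 were lower (median -0.07 with LncND siRNA and 0.18 with the mimic), and under median-ratio scaling 61 were lower.

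Among neuronal lists, synaptic vesicle medians were above 0 in both comparisons. Of the 41 genes of the synaptic vesicle cycle 28 had a higher LncND effect and 6 a lower one (median 0.44 with LncND siRNA and 0.11 with the mimic). In catecholamine genes the LncND effect was higher for 9 of 13 members and lower for 4 (median 0.58 with LncND siRNA and -0.03 with the mimic, or 0.04 with the mimic under median-ratio scaling). In axon and growth cone genes it was higher for 31 of 54 and lower for 11 (median 0.25 with LncND siRNA and -0.02 with the mimic, or 0.05 with the mimic under median-ratio scaling). SYN2, RET, PHOX2A and DBH rose with LncND siRNA and fell with the mimic. SYN2 changed by 0.93 with LncND siRNA and -0.41 with the mimic (difference 1.35 ± 0.087 SE, adjusted p = 3.44e-08). RET changed by 0.96 with LncND siRNA and -1.07 with the mimic (difference 2.04 ± 0.068 SE, adjusted p = 1.05e-10) and PHOX2A by 0.49 with LncND siRNA and -0.71 with the mimic (difference 1.20 ± 0.068 SE, adjusted p = 1.1e-08). DBH changed by 0.42 with LncND siRNA and -0.87 with the mimic (difference 1.29 ± 0.067 SE, adjusted p = 4.85e-09). CHGA, the granin that drives granule formation, changed by 0.46 with LncND siRNA and 1.85 with the mimic (difference -1.39 ± 0.078 SE, adjusted p = 1.06e-08). TXNIP changed by -0.98 with LncND siRNA and 0.86 with the mimic (difference -1.84 ± 0.062 SE, adjusted p = 1.12e-10) and the metallothionein MT1F by -0.76 with LncND siRNA and 1.98 with the mimic (difference -2.73 ± 0.17 SE, adjusted p = 2.94e-08). The cytokine gene CCL2 changed by 1.22 with LncND siRNA and -2.44 with the mimic (difference 3.66 ± 0.13 SE, adjusted p = 2.17e-10). Nuclear envelope medians were close, at -0.33 with LncND siRNA and -0.32 with the mimic, with 13 of 54 members higher and 22 lower by the test of the difference.

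**Figure D5:**
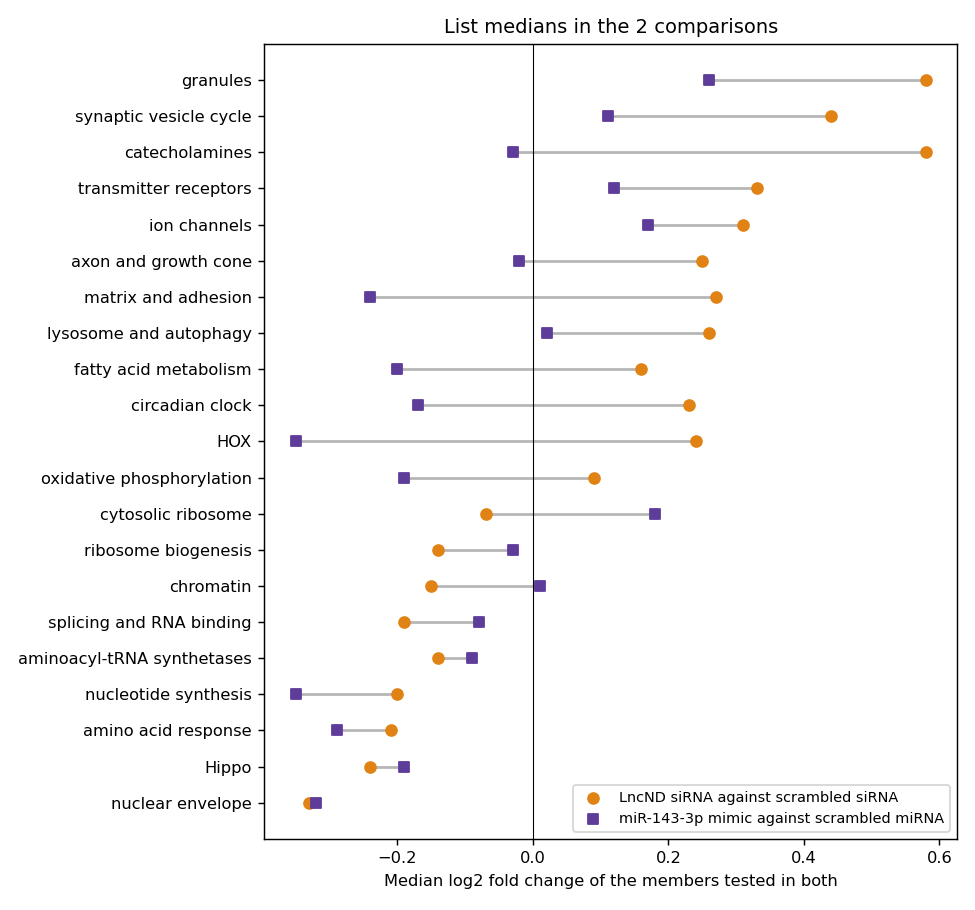
Circles give the median log2 fold change of a list's members with LncND siRNA and squares that with the miR-143-3p mimic, each against its own scrambled control, for members tested in both. Matrix and HOX medians lie above 0 with LncND siRNA and below 0 with the mimic, and the nuclear envelope medians are -0.33 and -0.32.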

How the data were processed

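Poly(A) RNA of 10 SH-SY5Y libraries was sequenced, per the labels' protocols, from stranded mRNA libraries. Values were FPKM, deposited by the authors in separate tables for siRNA and miRNA libraries, and made from reads on hg19 with TopHat, listed as version 1.0.0, and Cufflinks, per the submitters' processing notes. Which annotation, strand setting and filters they applied is not given in the sources used here. FPKM depends on library total, so 1 very abundant transcript can lower all others. In LncND siRNA replicate 1, where RNY4 was listed so high, the FPKM sum over loci of 300 bp or longer was 432314. In the other siRNA libraries that sum was 405607 to 421758.

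Of 25275 rows, 1304 lay off the assembled chromosomes and were dropped, and rows with a status word in place of a number (274 with too little data, 18 with a failed estimate) were left out, with the highest row kept for repeated names. log2(FPKM + 1) was tested with limma 3.58.1 (R 4.3.3, trended eBayes, 2-sided) where the mean FPKM was 1 or more, with Benjamini-Hochberg adjustment over all genes tested and a threshold of 0.05. The fit was tested on simulated data. Lists (52, with 2366 genes, 10 of them without a row) are described by counts and medians. The genes named were the 15 largest rises and 15 largest falls among loci of at least 300 bp with no overlap of groups, up to 4 rises and 4 falls per list, genes of a known controlling role, up to 3 genes per list and direction for the contrast, and reference genes. REST, MTOR, CTSD, LMNB1, SCG5, CPE, RNY4 and the promoter examples SUMF1, GALNS and NUP153, which fall outside this rule, were named after their values were seen. Members, lists and motifs were chosen with earlier results of these data known. Alternatives were other pseudocounts, filters and scalings, a replicate block, no trend and leaving out each library. Results for some genes that these rules name are not reported here.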

Additional observations from a re-analysis of the deposited data

How the results depend on the processing

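Of 119 overall counts under an alternative, 112 were within 1.5 times of the reported value. The count of all called genes ranged from 7688 to 8598 when 1 library was left out, and the counts of called genes higher and lower from 4194 to 4635 and from 3400 to 3963. Median-ratio scaling gave 4325 higher and 4127 lower, and quantile normalization turned the balance to 4028 higher and 4655 lower. Rises of 1.5-fold or more fell from 1043 to 641 with a minimum mean of 5 FPKM, where fewer genes are tested. Rises of 2-fold or more numbered 501 with a pseudocount of 0.1 and 181 with that minimum. Falls of 2-fold or more numbered 85 and 42 with pseudocounts of 0.1 and 0.5, 35 with quantile normalization, and 18 to 38 when 1 library was left out, with 38 without LncND siRNA replicate 1. Beyond the number of genes and the pseudocount, the cause of these shifts was not tested. Both groups carry replicate numbers 1 to 3, and deviations of same-numbered libraries from their group means correlated at 0.068, 0.207 and -0.053, so the numbers were not taken as pairs. With the replicate block 8022 genes were called, and 7123 genes differed from the mimic. Under quantile normalization, where the balance of calls turned, the median change went from 0.02 to -0.02. In the comparison with the mimic some list results also reversed under median-ratio scaling. The mimic's catecholamine median went from -0.03 to 0.04. The LncND effect was higher for 13 glycolysis genes and lower for 10, and under that scaling higher for 7 and lower for 12. Of 5446 pairs of a named gene and an alternative, 76 lost a call and 10 gained one. Among list counts 58 and among list medians 8 moved, including the ribosomal protein, oxidative phosphorylation and proteasome counts. For the 115 lysosome and autophagy genes, the count of 77 was unchanged when a mean of 1 FPKM was required in both groups, an alternative chosen after seeing the data. Genes near 1 FPKM rest on few fragments, and the files give no fragment counts to set their precision.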

Other observations

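Locus length went with the direction of calls. With tested genes cut into 5 equal classes by locus length, in the class of the shortest loci, from 0.03 to 8.3 kb, 46.6% rose and 19.6% fell. In the class of the longest, from 82.68 to 2304.6 kb, 31.8% rose and 36% fell. The median scrambled siRNA level was 12.9 FPKM in the shortest class and 8.1 FPKM in the longest class. Zinc finger genes with ZNF symbols leaned down, with 100 of 464 higher and 181 lower, and a median of -0.059.

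Of 297 long non-coding RNA genes tested, by RefSeq gene type, 37.4% rose and 18.5% fell. The genes named here were chosen after their values were seen. MIAT, a nuclear RNA of neurons, rose from 2.95 ± 0.223 to 8.57 ± 0.555 FPKM (log2 fold change 1.28 ± 0.059 SE, adjusted p = 8.01e-08). TP53TG1, a p53-linked RNA, rose from 18 ± 1.26 to 42.4 ± 2.36 FPKM (log2 fold change 1.19 ± 0.056 SE, adjusted p = 8.91e-08), and LOC90246 from 1.93 ± 0.159 to 7.72 ± 0.478 FPKM (log2 fold change 1.57 ± 0.059 SE, adjusted p = 2.54e-08). The snoRNA host gene SNHG4 fell from 3.98 ± 0.142 to 2.43 ± 0.192 FPKM (log2 fold change -0.54 ± 0.057 SE, adjusted p = 1.67e-05). CERS6-AS1, an antisense transcript, fell from 19.6 ± 0.407 to 13.2 ± 1.19 FPKM (log2 fold change -0.54 ± 0.058 SE, adjusted p = 1.78e-05), and whether the counting used strand is not given in the sources used here.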
